A study of Rattus norvegicus with 30 samples.

Results

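This account follows 10 rat genes of the interleukin-1 (IL-1) and NF-kB response, Il1r1, Il1r2, Il1rn, Irak2, Nfkb1, Nfkbia, Tnfaip3, Cxcl1, Ccl2 and Icam1, in cultured hepatocytes exposed to clofibrate. The members are the probe sets that the array's gene table ties to 1 listed symbol only. All 10 were found, on 12 probe sets, of 14217 genes with a single symbol on the array. Where a gene had several probe sets, the one with the highest mean log2 signal over the 30 arrays stands for it. Il1r1 has 3 probe sets and the other 9 genes have 1 each.

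The cells were frozen primary hepatocytes of male Sprague Dawley rats, thawed onto collagen under Matrigel. On day 3 of culture they received the vehicle, 1% DMSO, or clofibrate at 60 uM or 1000 uM, and RNA was taken after 24 or 48 h. Clofibrate, a lipid-lowering fibrate, is an agonist of PPAR-alpha. There were 6 groups, vehicle, 60 uM and 1000 uM at each time, with 5 arrays per group, each from its own culture well, and all groups shared the same cell source, strain, sex and medium. The labels name separate cultures and no separate animals, so the p-values measure the spread between cultures. The labels name no added cytokine. Values are MAS5 signals of Affymetrix arrays, a brightness per probe set scaled alike on each array.

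IL-1 binds the receptor Il1r1, which recruits adaptor proteins and kinases of the Irak family and frees the transcription factor NF-kB from its inhibitor, the product of Nfkbia. NF-kB then raises chemokines such as Cxcl1 and Ccl2, the adhesion molecule Icam1, and its own brakes, Nfkbia and Tnfaip3. In liver, IL-1 together with IL-6 drives the acute phase response of hepatocytes, and the decoy receptor Il1r2 and the receptor antagonist Il1rn limit IL-1. NF-kB dimers bind a short motif in target promoters, the kB site.

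RefSeq promoter windows, from 250 bases before to 50 after the start of the gene on GRCr8, were at hand for 7 of the 10 genes, and the genes without one were Il1r2, Irak2 and Ccl2. The NF-kB consensus decamer, searched on both strands, was in 5 of the 7 windows and in 7.6% of all 27457 windows (2087 of them). The 3 upstream parts below are shown because Cxcl1, Tnfaip3 and Nfkbia are textbook NF-kB target genes whose signals are described next. They are the 250 bases before the start, 5' to 3' on the strand of the gene, with the decamer matches in capitals. Positions are chr14:17479322-17479571 (minus strand) for Cxcl1, chr1:15543980-15544229 (minus strand) for Tnfaip3 and chr6:78597073-78597322 (minus strand) for Nfkbia.
Cxcl1: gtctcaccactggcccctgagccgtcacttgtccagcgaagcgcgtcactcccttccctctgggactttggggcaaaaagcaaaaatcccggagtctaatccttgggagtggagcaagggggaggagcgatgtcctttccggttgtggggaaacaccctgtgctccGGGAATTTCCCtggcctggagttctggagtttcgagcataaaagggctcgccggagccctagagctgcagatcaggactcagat
Tnfaip3: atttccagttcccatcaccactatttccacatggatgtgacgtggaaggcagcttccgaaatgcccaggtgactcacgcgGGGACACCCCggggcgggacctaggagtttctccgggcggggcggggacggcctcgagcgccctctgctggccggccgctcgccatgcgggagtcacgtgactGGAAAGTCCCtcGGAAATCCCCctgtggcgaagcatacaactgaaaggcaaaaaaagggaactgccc
Nfkbia: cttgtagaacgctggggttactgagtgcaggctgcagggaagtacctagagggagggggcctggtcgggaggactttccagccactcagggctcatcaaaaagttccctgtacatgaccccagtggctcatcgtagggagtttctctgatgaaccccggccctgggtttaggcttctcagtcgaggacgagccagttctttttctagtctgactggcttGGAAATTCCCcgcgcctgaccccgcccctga
In Cxcl1 the capitals are 1 run of 11 bases, 2 overlapping matches on opposite strands, beginning 84 bases before the start. Tnfaip3 has 3 sites, beginning 170, 67 and 55 bases before the start, and Nfkbia has 1, beginning 31 bases before it. Il1r1 had 1 site 135 bases before its start, GGAATGCCCC, and Nfkb1 had 1 just after its start, GGGAATTTCC. No match stood in the windows of Il1rn or Icam1. Only exact matches to the decamer were counted, so stretches that differ by 1 base, such as tggaaattcc in the Icam1 window, were left out. A match describes the letters of the window and is no evidence of binding in these cells.

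The arrays were alike in the measures of quality that the values allow. Signals of 79.8% to 84.0% of probe sets per array lay above 79.13, the floor used here, which is the highest group mean of the bacterial TrpnX control sets whose RNA is not added to the samples. The ratio of 3' to 5' signal was 2.11 to 2.72 for actin and 1.11 to 1.21 for GAPDH. Replicate 1 of DMSO at 48 h had the highest residual SD, 0.336 on the log2 scale, and the next highest was 0.297. All 9 hepatocyte markers measured, with Alb (albumin) the brightest, lay above the floor in every group. The hepatocyte markers were not steady at 1000 uM, by the calls defined below: 7 of the 9 fell and 0 rose at 24 h, and 4 fell and 1 rose at 48 h. The falls were 77.8% and 44.4% of the 9. Of all probe sets tested, 17.4% fell and 11.5% rose at 24 h, and 22.7% fell and 15.2% rose at 48 h. The widest falls were those of Tat, a tyrosine-degrading enzyme (-0.94 and -1.31), and Ahsg, the secreted protein fetuin-A (-0.33 and -1.24). The medians of the 9 markers were -0.20 at 24 h and -0.06 at 48 h, and the part of these falls in the results below was not tested.

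Most of these genes fell at 1000 uM, and none of those tested rose. One gene, Ccl2, was too dim to be tested, so counts are of 9 genes. The genes were chosen with earlier results of these data known, so the contrasts with all probe sets describe that choice and are no independent evidence. A call is an adjusted p under 0.05 in a limma fit across all 18625 probe sets above a brightness filter (signal 255.2), with Benjamini-Hochberg adjustment over all of them. At 1000 uM after 24 h, 6 of the 9 fell and 0 rose, where 17.4% of all probe sets tested fell and 11.5% rose. At 1000 uM after 48 h, 8 of the 9 fell and 0 rose, where 22.7% of all probe sets fell and 15.2% rose. Their median log2 change was -0.34 at 24 h and -0.86 at 48 h, against -0.05 and -0.04 for all probe sets tested. The number higher at an unadjusted p under 0.05 was also 0 at both times.

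The lower dose moved fewer of them. At 60 uM after 24 h, 0 of the 9 passed in either direction by limma, while 3.14% of all probe sets fell and 3.43% rose by the same call. At an unadjusted limma p under 0.05, 3 of the 9 were lower and 0 higher. No share of all probe sets at that looser threshold is given here, so those counts have no background beside them. The median of the 9 genes there was -0.10, against -0.03 for all probe sets. At 60 uM after 48 h, 2 of the 9 fell, Il1r2 and Il1r1, and 0 rose, while 4.43% of all probe sets fell and 4.62% rose, and the medians were -0.18 and -0.004. Again 0 were higher at an unadjusted p under 0.05 at either time, and 5 were lower at 48 h, also without a share of all probe sets at that threshold. The doses share the DMSO arrays of their time, so they are not independent sets of evidence.

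**Figure D1:**
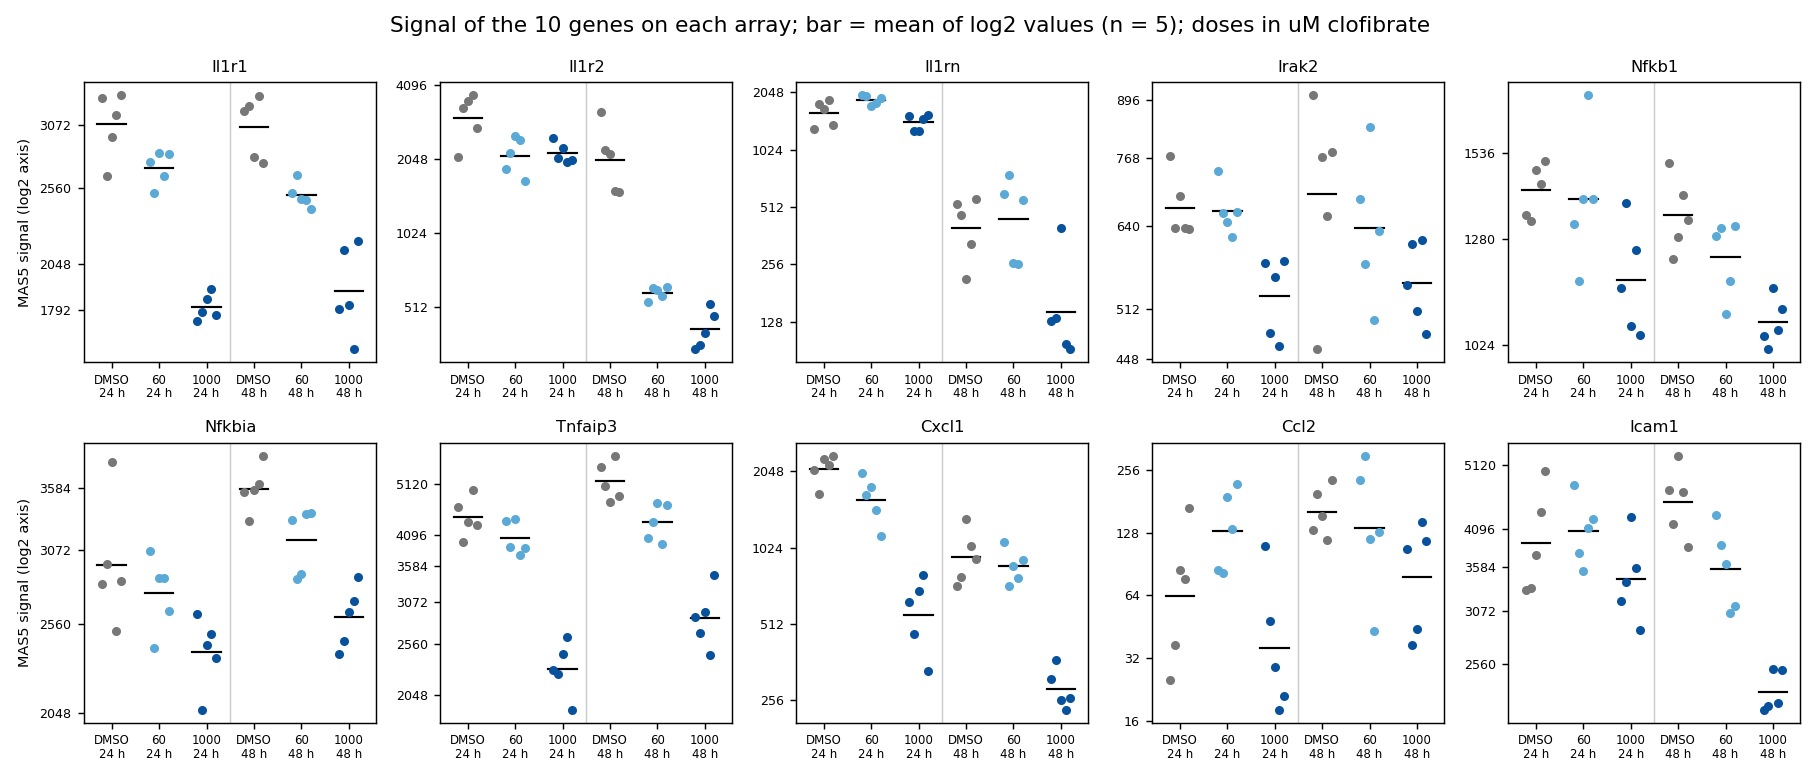
MAS5 signal of each of the 10 genes on every array, on a log2 axis, in the order DMSO, 60 uM and 1000 uM clofibrate at 24 h and then at 48 h. Points are arrays (5 per group) and bars are means of log2 values, and each panel has its own axis range. Cxcl1, Tnfaip3 and Il1r1 have their lowest points of each time at 1000 uM, Il1r2 drops at both doses at 48 h, and Il1rn is dim in all groups at 48 h.

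The receptor Il1r1, through which IL-1 signals, was lowest at 1000 uM at both times. At 24 h its brightest probe set read 3324, 2650, 2969, 3162 and 3354 in DMSO, 2758, 2520, 2835, 2653 and 2828 at 60 uM, and 1736, 1785, 1854, 1909 and 1769 at 1000 uM. At 48 h it read 3201, 3246, 2797, 3344 and 2751 in DMSO, 2521, 2661, 2477, 2468 and 2409 at 60 uM, and 1797, 2134, 1822, 1600 and 2192 at 1000 uM. All 1000 uM arrays lay below all DMSO and all 60 uM arrays of their time. Il1r1 fell 1.7-fold at 24 h (log2 change -0.77 ± 0.08 SE, adjusted p = 6.86e-10) and 1.61-fold at 48 h (-0.69 ± 0.08, adjusted p = 4.58e-09) by limma, n = 5 per group. At 60 uM it fell after 48 h (-0.29 ± 0.08, adjusted p = 0.0114), with no overlap of the groups, and the 24 h value was -0.18 (adjusted p = 0.183).

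The dimmer probe sets of Il1r1 gave no call. The second, with signals of 275 to 392 at 1000 uM and 384 to 460 in DMSO at 24 h, had a log2 change of -0.30 (adjusted p = 0.133) at 1000 uM and 24 h, and of 0.19 (adjusted p = 0.347) at 1000 uM and 48 h. At 60 uM and 48 h its change was 0.20 (adjusted p = 0.513). Of these, the 48 h values have the opposite sign to those of the brightest probe set. The dimmest lay below the brightness filter, with group means of 208.5 to 287.9. So the fall of Il1r1 rests on 1 of its 3 probe sets, and which transcript each one measures was not tested.

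**Figure D2:**
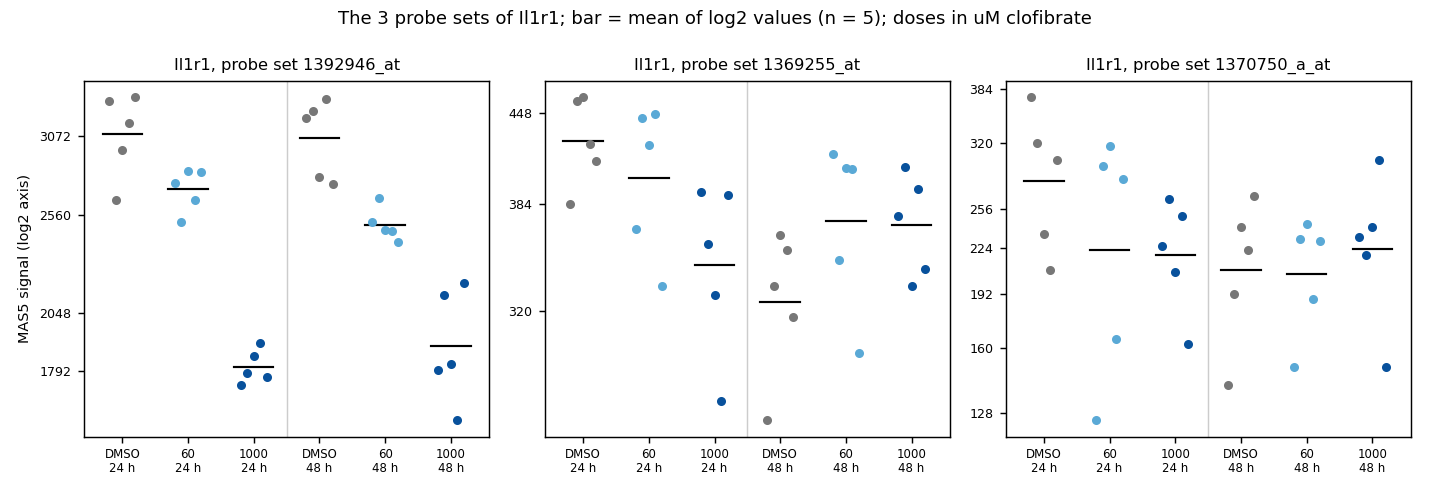
MAS5 signal of the 3 probe sets of Il1r1 on every array, on a log2 axis, in the order DMSO, 60 uM and 1000 uM at 24 h and then at 48 h, with bars at the mean of log2 values (n = 5). The brightest set (left) steps down with dose at both times, with group means of 1811 and 1909 at 1000 uM against 3092 and 3068 in DMSO, while the means of the other 2 sets step down at 24 h only, with overlapping arrays.

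Il1r2, the decoy receptor that binds IL-1 without signalling, changed the most of the 9 genes at 48 h. Its signals at 48 h were 3197, 2245, 2158, 1520 and 1504 in DMSO, 538, 616, 601, 571 and 617 at 60 uM, and 346, 359, 403, 529 and 473 at 1000 uM. Every clofibrate array lay far below every DMSO array at that time, and the 60 uM group spread less (CV 5.71%) than the DMSO group (CV 32.6%). The fall was 4.9-fold at 1000 uM (-2.29 ± 0.17, adjusted p = 2.61e-13) and 3.47-fold at 60 uM (-1.80 ± 0.17, adjusted p = 7.81e-10). At 48 h the 1000 uM arrays also lay below the 60 uM arrays (-0.50 ± 0.17, adjusted p = 0.0242). That difference between doses no longer passed without 1000 uM replicate 1 (adjusted p = 0.0735) or replicate 2 (adjusted p = 0.0664).

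At 24 h Il1r2 behaved otherwise. It read 2084, 3318, 3544, 3740 and 2743 in DMSO, 1874, 2173, 2549, 2449 and 1669 at 60 uM, and 2507, 2070, 2273, 1997 and 2042 at 1000 uM. The groups overlapped, through replicate 1 of DMSO. The change at 1000 uM passed (-0.48 ± 0.17, adjusted p = 0.0275) and the change at 60 uM, of nearly the same size, did not (-0.51 ± 0.17, adjusted p = 0.0576). The difference between the doses was 0.04, with a 95% confidence interval of -0.30 to 0.37. The call at 1000 uM was lost without DMSO replicate 2, 3 or 4 or without 1000 uM replicate 2, 4 or 5, with adjusted p between 0.053 and 0.089, and without DMSO replicate 1 the 60 uM change was -0.65 (adjusted p = 0.0115).

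The effect of time on Il1r2 was tested directly. The change at 48 h minus that at 24 h was -1.28 ± 0.23 at 60 uM (adjusted p = 0.0108) and -1.82 ± 0.23 at 1000 uM (adjusted p = 1.91e-06). For the 60 uM comparison of times, 1 of 9 genes was lower and 0 were higher, while 0.0483% of all probe sets were lower and 0.0376% higher. For the 1000 uM comparison of times, 2 of 9 were lower, Il1r2 and Icam1, and 0 were higher, against 4.12% of probe sets lower and 4.17% higher. In DMSO alone, Il1r2 fell by 48 h relative to 24 h by -0.57 ± 0.17 (adjusted p = 0.0312), with overlap. That call was fragile: it held in 11 of 21 alternatives and was lost, among others, without DMSO replicate 2, 3 or 4 of 24 h or replicate 4 or 5 of 48 h, with adjusted p between 0.0774 and 0.11.

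Il1rn, the secreted antagonist that blocks Il1r1, differed more between the times than between doses at 24 h. At 24 h its signals were 1316, 1787, 1673, 1867 and 1383 in DMSO, 1980, 1956, 1725, 1801 and 1905 at 60 uM, and 1543, 1275, 1288, 1488 and 1556 at 1000 uM. The groups overlapped with DMSO, and neither dose passed (0.23, adjusted p = 0.775, and -0.16, adjusted p = 0.761). All 1000 uM arrays of 24 h lay below all 60 uM arrays, which did not pass in the shared fit (-0.39, adjusted p = 0.445). It passed when only those groups were fitted (adjusted p = 0.00273). The shared fit also takes its spread from the 48 h arrays, with log2 SD of 0.577 to 0.851, against 0.084 to 0.225 at 24 h. At 48 h the Il1rn signals were 530, 465, 216, 327 and 564 in DMSO, 598, 752, 260, 257 and 556 at 60 uM, and 130, 134, 398, 98 and 92 at 1000 uM. Thus 4 of the 5 arrays at 1000 uM stood near the floor of 79.13 and 1 stood among the DMSO values. The fall at 1000 uM was 2.75-fold (-1.46 ± 0.30, adjusted p = 0.000189) and -1.82 (adjusted p = 6.51e-07) without that array. At 60 uM and 48 h the value was 0.15 (adjusted p = 0.851).

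Irak2, a kinase-like partner in the IL-1 receptor complex, did not pass at either time. At 24 h it read 579, 480, 558, 464 and 582 at 1000 uM against 771, 637, 693, 636 and 634 in DMSO, groups that do not overlap (-0.34 ± 0.15, adjusted p = 0.0755). At 48 h the values were 479 to 617 at 1000 uM against 460 to 909 in DMSO, with the same difference (-0.34 ± 0.15, adjusted p = 0.0611). Replicate 2 of DMSO at 48 h, 460, was the lowest of its group, and without it the change was -0.49 (adjusted p = 0.0035). At 60 uM the signals were 741, 663, 647, 622 and 664 at 24 h and 688, 578, 835, 498 and 632 at 48 h, inside or around the DMSO ranges, and the changes were -0.01 (adjusted p = 0.98) and -0.13 (adjusted p = 0.696).

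Nfkb1, which encodes the p105 precursor of a NF-kB subunit, had small falls at 1000 uM. At 24 h it read 1154, 1383, 1066, 1253 and 1045 at 1000 uM against 1347, 1332, 1483, 1439 and 1512 in DMSO, and only replicate 2 of the 1000 uM group lay inside the DMSO range (-0.28 ± 0.09, adjusted p = 0.0202). At 48 h it read 1043, 1015, 1155, 1056 and 1104 at 1000 uM against 1504, 1229, 1288, 1405 and 1334 in DMSO, without overlap (-0.33 ± 0.09, adjusted p = 0.00412). The 24 h call was lost without 1000 uM replicate 3 or 5 or DMSO replicate 5, with adjusted p between 0.0507 and 0.0691. At 60 uM it read 1323, 1172, 1395, 1737 and 1394 at 24 h and 1289, 1311, 1094, 1173 and 1318 at 48 h, overlapping DMSO at both times, and the changes of -0.03 and -0.13 did not pass.

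Nfkbia encodes IkB-alpha, the inhibitor that NF-kB itself induces. At 24 h its signals were 2623, 2066, 2426, 2497 and 2353 at 1000 uM against 2823, 2964, 3819, 2513 and 2848 in DMSO, with 1 array of each group overlapping (-0.31 ± 0.09, adjusted p = 0.00501). At 48 h they were 2371, 2451, 2637, 2705 and 2875 at 1000 uM against 3551, 3301, 3566, 3621 and 3881 in DMSO, without overlap (-0.46 ± 0.09, adjusted p = 4.93e-05). At 60 uM they were 3061, 2409, 2869, 2869 and 2640 at 24 h and 3307, 2856, 2898, 3361 and 3365 at 48 h. These overlapped DMSO at both times, and the changes of -0.10 and -0.18 did not pass. Nfkbia at 1000 uM was below 60 uM at 48 h (-0.28 ± 0.09, adjusted p = 0.0159) with overlap, a call that was lost without 1000 uM replicate 1 (adjusted p = 0.0516), and the 24 h difference was -0.21 (adjusted p = 0.0929).

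Tnfaip3 encodes A20, a ubiquitin-editing enzyme that shuts off IL-1 and TNF signalling. At 24 h it read 4630, 3984, 4329, 4979 and 4288 in DMSO, 4364, 3899, 4399, 3762 and 3871 at 60 uM, and 2280, 2239, 2448, 2635 and 1920 at 1000 uM. At 48 h it read 5497, 5073, 4723, 5779 and 4849 in DMSO, 4042, 4340, 4712, 3939 and 4675 at 60 uM, and 2872, 2675, 2940, 2436 and 3446 at 1000 uM. The 1000 uM arrays were the lowest at both times and touched neither of the other groups. The fall was 1.93-fold at 24 h (-0.95 ± 0.09, adjusted p = 6.67e-11) and 1.81-fold at 48 h (-0.86 ± 0.09, adjusted p = 4.64e-10). At 60 uM and 48 h all 5 arrays lay just below the DMSO arrays, yet the change did not pass (-0.26 ± 0.09, adjusted p = 0.0543).

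Cxcl1, a neutrophil-attracting chemokine and the gene with the widest kB run above, had the largest change at 24 h among the 9 genes. Its signals at 24 h were 2067, 1663, 2296, 2161 and 2357 in DMSO, 2018, 1652, 1770, 1436 and 1135 at 60 uM, and 622, 466, 690, 797 and 333 at 1000 uM. At 48 h they were 723, 784, 1322, 1038 and 926 in DMSO, 1078, 725, 867, 778 and 916 at 60 uM, and 311, 367, 257, 234 and 260 at 1000 uM. Again the 1000 uM arrays lay below every other array of their time. The fall was 3.77-fold at 24 h (-1.91 ± 0.19, adjusted p = 7.9e-10) and 3.32-fold at 48 h (-1.73 ± 0.19, adjusted p = 4.58e-09). The 2 changes differed by 0.18 ± 0.27 (adjusted p = 0.79). At 60 uM Cxcl1 did not pass (-0.41, adjusted p = 0.252, at 24 h and -0.12, adjusted p = 0.819, at 48 h).

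Icam1, the adhesion molecule that binds leukocyte integrins, was unlike Cxcl1 in its timing. At 24 h its signals were 3190, 3408, 4267, 3579 and 2883 at 1000 uM against 3315, 3336, 3745, 4353 and 5016 in DMSO, overlapping (-0.18 ± 0.11, adjusted p = 0.246). At 48 h they were 2177, 2209, 2511, 2231 and 2501 at 1000 uM against 4691, 4163, 5290, 4660 and 3842 in DMSO, a clear gap and a 1.94-fold fall (-0.96 ± 0.11, adjusted p = 1.85e-08). The change at 48 h minus that at 24 h was -0.77 ± 0.16 (adjusted p = 0.00131). At 60 uM it read 4785, 3772, 3543, 4112 and 4248 at 24 h and 4309, 3869, 3622, 3050 and 3125 at 48 h, overlapping DMSO at both times, with changes of 0.06 at 24 h and -0.34 at 48 h (adjusted p = 0.0566). At 48 h the 1000 uM arrays lay below all 60 uM arrays (-0.62 ± 0.11, adjusted p = 6.36e-05).

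Ccl2, the monocyte chemokine, was hardly detected. Its signals were 25 to 168 in DMSO, 82 to 220 at 60 uM and 18 to 111 at 1000 uM at 24 h, and 119 to 229, 43 to 301 and 37 to 144 at 48 h. The group mean of log2 values lay under the floor in DMSO at 24 h and at 1000 uM at both times, so no fold is given. When all probe sets were fitted without the filter, the changes against DMSO at 1000 uM were -0.82 (adjusted p = 0.398) at 24 h and -1.05 (adjusted p = 0.204) at 48 h. Those at 60 uM were 1.05 (adjusted p = 0.458) and -0.25 (adjusted p = 0.914). In that fit the difference of 1000 uM from 60 uM passed at 24 h (-1.88 ± 0.56, adjusted p = 0.0246), with the 1000 uM mean under the floor, and did not at 48 h (-0.79, adjusted p = 0.444).

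**Figure D3:**
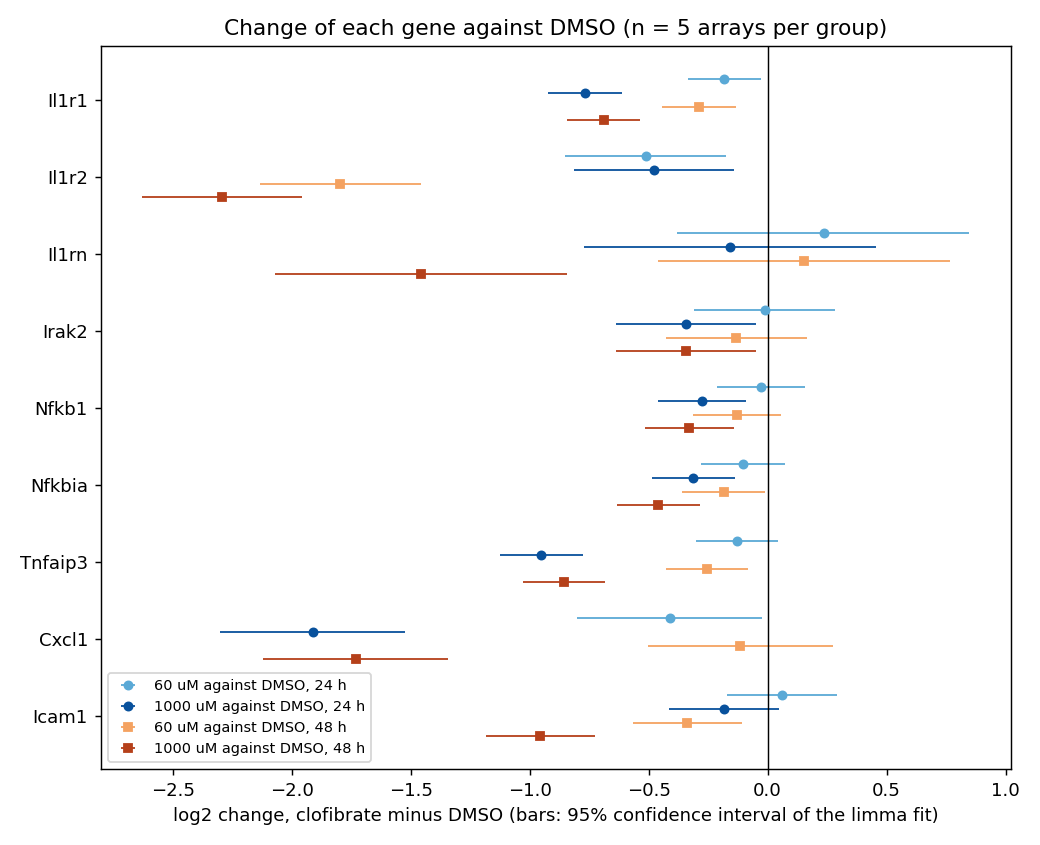
Log2 change of the 9 tested genes, clofibrate minus DMSO, with 95% confidence intervals from the limma fit, for 60 uM and 1000 uM at 24 h (circles) and 48 h (squares). Points to the left of 0 are lower with clofibrate. Il1r2 separates by time (-0.48 at 24 h and -2.29 at 48 h for 1000 uM), Icam1 and Il1rn have their only interval clear of the others at 1000 uM and 48 h, and Cxcl1 and Tnfaip3 separate by dose.

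Between the doses, 3 of the 9 genes were lower at 1000 uM than at 60 uM after 24 h and 0 were higher, while 10.4% of all probe sets were lower and 7.5% higher. These were Cxcl1 (-1.50), Tnfaip3 (-0.82) and Il1r1 (-0.59). After 48 h, 7 of the 9 were lower and 0 were higher, while 15.3% of all probe sets were lower and 10% higher. Cxcl1 (-1.62) and Il1rn (-1.61) had the widest gaps there, and Irak2 (-0.21) and Nfkb1 (-0.20) did not pass.

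Without the drug, some of the genes differed between the times. Time in culture and time in 1% DMSO cannot be told apart here. In DMSO, 48 h against 24 h, 3 of the 9 fell and 1 rose, where 3.07% of all probe sets fell and 3.88% rose. Il1rn fell 4.01-fold (-2.003 ± 0.30, adjusted p = 2.04e-05) and Cxcl1 2.24-fold (-1.16 ± 0.19, adjusted p = 8.08e-05), both without overlap, and Il1r2 passed only narrowly, as given above. Nfkbia, the only riser, was close to the threshold (0.27 ± 0.09, limma adjusted p = 0.0494), and that call was fragile: it held in 6 of 21 alternatives. The median of the 9 genes was -0.01, the same as that of all probe sets. In the same comparison 3 of 11 macrophage markers fell and 0 rose (median -0.44), and 10 of 19 acute phase genes fell and 2 rose (median -0.26). Their part in the changes of Il1rn and Cxcl1 was not tested.

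Other genes of the pathway were taken from 7 lists that do not hold the 10 genes. Their counts stand beside the shares of all probe sets at 1000 uM, 17.4% lower and 11.5% higher at 24 h and 22.7% lower and 15.2% higher at 48 h. Among IL-1 ligands and receptor partners, 7 of 11 were tested, and at 1000 uM 1 rose and 0 fell at 24 h and 1 rose and 1 fell at 48 h. The riser was Sigirr, an inhibitory receptor of the IL-1 family, whose signals at 48 h were 3356, 3363, 2675, 2812 and 3570 at 1000 uM against 1798, 1518, 2112, 2063 and 1620 in DMSO (0.80 ± 0.09, adjusted p = 1.06e-08). It also rose at 24 h (0.56 ± 0.09, adjusted p = 8.74e-06), opposite in sign to Il1r1. Il18, an IL-1 family cytokine, fell at 48 h (-1.45 ± 0.30, adjusted p = 0.000247). The ligand Il1a had signals of 196 to 465 over the 30 arrays and Il1b, which lay below the filter, 48.1 to 439.

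Of the adaptors and kinases of IL-1, TLR and TNF signalling, 23 of 30 were tested. At 1000 uM, 2 rose and 7 fell at 24 h, and 1 rose and 2 fell at 48 h. The falls were 30.4% of the list at 24 h and 8.7% at 48 h, the 48 h share being below that of all probe sets. The 7 falls at 24 h became 2 with median centring and 4 without the brightness filter, and the 1 rise at 48 h became 4 with quantile normalization. Chuk, the kinase IKK-alpha, rose at both times. Its signals at 48 h were 22280, 21246, 22500, 22369 and 22890 at 1000 uM against 13563, 13452, 12903, 14798 and 14096 in DMSO, far apart (0.70 ± 0.04, adjusted p = 7.54e-16), and at 24 h the change was 0.59 (adjusted p = 6.1e-14). Tab2, an adaptor of the kinase TAK1, rose at 24 h (0.46), while Traf3 (-0.43) and Irak3 (-0.34), a brake on IL-1 receptor signalling, fell. In the NF-kB and IkB family 7 of 9 were tested, and at 1000 uM 1 rose and 3 fell at 24 h and 1 rose and 2 fell at 48 h. With so few genes tested, 28.6% lower at 48 h is near the share of all probe sets. Rela, the p65 subunit, read 2142, 2004, 2181, 2026 and 2113 at 1000 uM against 3633, 3661, 3277, 3347 and 3079 in DMSO at 48 h (-0.70 ± 0.07, adjusted p = 1.18e-09). Nfkb2 fell at both times (-0.59 and -0.71), and Nfkbib, encoding IkB-beta, rose at both (0.47 and 0.56), unlike Nfkbia.

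The feedback regulators gave 0 rises, 3 falls at 24 h and 6 at 48 h at 1000 uM, of 9 tested from 14 listed, with medians of -0.16 and -0.27. Tnip2, a partner of A20, fell (-0.59 and -0.63), as did the deubiquitinase Cyld (-0.39 and -0.53), and Zc3h12a, the RNase Regnase-1, fell at 48 h (-0.78). Of the 22 chemokines, cytokines and adhesion genes only 9 were bright enough to test, and 2 fell and 0 rose at each time at 1000 uM, with 1 higher at an unadjusted p under 0.05 at each time. These falls, 22.2% of the genes tested, are near the share of all probe sets, and the list medians were -0.42 at 24 h and 0.007 at 48 h. Cxcl16, a membrane-bound chemokine, read 1548, 1349, 1508, 1748 and 1709 at 1000 uM against 6726, 6547, 5954, 5046 and 5628 in DMSO at 48 h (-1.93 ± 0.09, limma adjusted p = 1.33e-18). Other genes of that list did not follow it. At 48 h the group means at 1000 uM and in DMSO were 1662 and 1655 for Cxcl11, 6195 and 6974 for Csf1, and 377.5 and 222.7 for the dim Ccl20. The other NF-kB-induced genes, 15 of 20 tested, had 5 falls and 0 rises at 24 h and 5 falls and 1 rise at 48 h. Ier3, an early response gene, fell at both times (-1.35 and -1.18), and so did Myc (-0.64 and -1.22) and Tap1, a peptide transporter for antigen presentation (-0.75 and -1.27).

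The acute phase genes, the hepatocyte output of IL-1 and IL-6, gave the highest share of falls among the 7 lists. The lists too were chosen with earlier results of these data known, so their shares are no independent evidence. Of 19 tested from 20 listed, 16 fell at 24 h and 17 at 48 h at 1000 uM, and 0 rose at either time, also at an unadjusted p under 0.05, with medians of -0.38 and -0.54 against -0.05 and -0.04 for all probe sets tested. At 60 uM 7 fell at 24 h and 6 at 48 h, 36.8% and 31.6% of the 19, against 3.14% and 4.43% of all probe sets tested. A2m, a protease inhibitor, read 15086, 19280, 17688, 15148 and 15445 at 1000 uM against 55135, 62039, 59494, 54933 and 58466 in DMSO at 48 h (-1.82 ± 0.06, adjusted p = 2.07e-21). Lbp, which presents lipopolysaccharide, fell at both times (-0.89 and -1.42), and so did complement C3 (-0.61 and -1.07) and the IL-6 receptor Il6r (-1.07 and -0.88). These counts depend on the scaling of the arrays. With the poly-A spike-in controls as the scale, described at the end, 7 and 10 acute phase genes fell at 1000 uM at 24 and 48 h. On that scale the medians of all tested probe sets were also higher, 0.18 and 0.12 in place of -0.05 and -0.04. No share of all probe sets that fell or rose on it is given here, so the counts that follow are not particular to these lists. Of the adaptors, 0 fell at either time and 6 rose at 48 h, and of the NF-kB and IkB family 0 fell at 24 h and 2 rose at 48 h. On that scale 1 of the feedback regulators rose at each time, while 1 fell at 24 h and 2 at 48 h. Of the chemokines, cytokines and adhesion genes 1 rose and 1 fell at 24 h, and 2 rose and 1 fell at 48 h. The other NF-kB-induced genes had 3 rises and 3 falls at 24 h and 2 rises and 3 falls at 48 h. With median centring 1 feedback regulator rose at 24 h, and when only the compared groups were fitted 1 rose at 48 h. At 48 h, 1 of the chemokines, cytokines and adhesion genes fell with quantile normalization and 1 when only the compared groups were fitted.

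**Figure D4:**
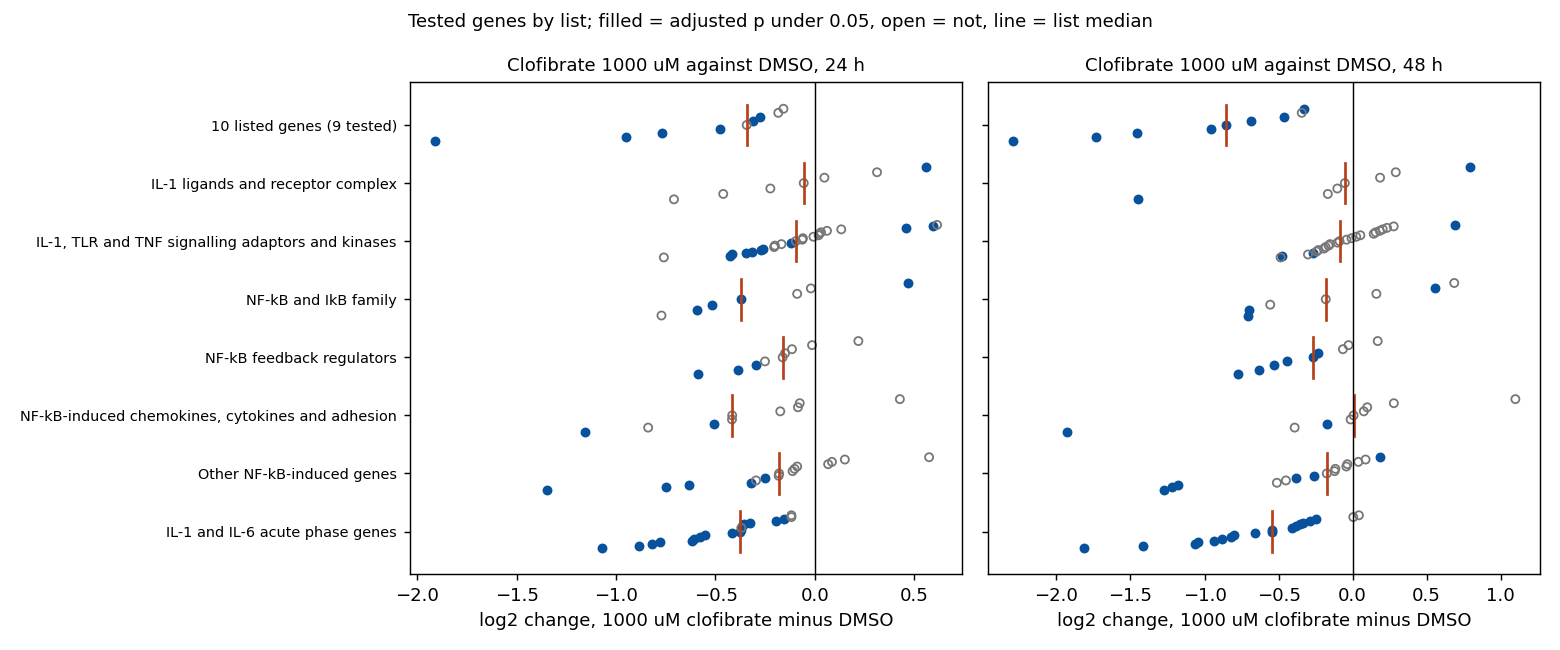
Log2 change at 1000 uM against DMSO at 24 h (left) and 48 h (right) for the 9 tested genes (top row) and for the tested genes of the 7 lists. Each point is a gene, filled where the adjusted p is under 0.05, and lines are medians, -0.34 and -0.86 for the 9 genes and -0.38 and -0.54 for the acute phase genes. The acute phase row lies almost wholly left of 0, while the adaptor row straddles it.

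The summed signal of macrophage markers was lower at higher dose beside these genes, and its part in the result was not tested. Of 17 listed markers of Kupffer cells and macrophages 14 were measured and 13 lay above the floor in every group, and Adgre1 (F4/80) lay under it in all 6. Their summed signal at 24 h was 15109 to 16278 in DMSO, 13357 to 14885 at 60 uM and 12053 to 13769 at 1000 uM, and at 48 h it was 13148 to 13929, 11059 to 12633 and 9699 to 10961. The dose order came from the brightest, Lyz2 (lysozyme). Without it the sums overlapped between doses, with 7898 to 8351, 7683 to 8865 and 7534 to 7920 at 24 h and 5268 to 6585, 5276 to 6893 and 5531 to 6581 at 48 h. At 1000 uM and 48 h 3 of 11 tested markers fell, Lyz2 (-0.85), C1qb (-1.86) and Fcer1g (-0.37), and Tyrobp rose (0.72). That is 27.3% lower and 9.09% higher, against 22.7% lower and 15.2% higher among all probe sets tested. The C1qb signal in that group was dim, with a mean of 111.9 and a lowest array of 48.8, which is under the floor. In such bulk samples fewer cells of a type and less RNA per cell cannot be told apart. Of 6 neutrophil markers measured, 0 were bright enough to test.

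The genes differed in how closely they followed each other over the 30 arrays, a description in which the points share dose and time groups. Il1r1 and Tnfaip3 had the highest Pearson r of any pair of the 9 (0.913), and Il1rn and Nfkbia the lowest (-0.171). Among 10513 genes compared over the 30 arrays, the closest to Il1r1 was Egfr (r = 0.948), to Il1r2 Pglyrp1 (r = 0.958), to Il1rn Fgl1 (r = 0.926), to Tnfaip3 Rnase4 (r = 0.954) and to Cxcl1 Cp (r = 0.943). Irak2 had the loosest match, Dgcr2 (r = 0.718). In the RefSeq gene order Il1r2 and Il1r1 lie close together on chromosome 9, followed by Il1rl2, whose changes of -0.46 and 0.19 at 1000 uM did not pass. On the other side of Il1r2 lies Map4k4, a kinase gene, whose change at 1000 uM was -0.17 (adjusted p = 0.0965) at 24 h and which fell at 48 h (-0.54, adjusted p = 2.99e-07).

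The authors' scaling gives every array the same mean, so a change in total RNA per cell would not show. When arrays were scaled to the poly-A spike-in controls instead, the median of all tested probe sets at 1000 uM shifted to 0.18 at 24 h and 0.12 at 48 h. On that scale 3 of the 9 genes fell at 24 h, those being Cxcl1 (-1.69), Tnfaip3 (-0.72) and Il1r1 (-0.54), while Nfkb1 no longer passed at 48 h (-0.17, limma adjusted p = 0.31). The share of all probe sets that fell on that scale is not given here.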

How the data were processed

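Total RNA of 30 rat hepatocyte cultures was measured on Affymetrix arrays. The deposited values are linear intensities (signals) that the authors made with MAS5, per the submitters' processing notes. Each array had a mean of 1500.59 to 1500.67 when the outer 2% of values at each end were left out. The number of arrays limits the precision.

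Groups came from the labels. Signals were put on a log2 scale. Of 31042 probe sets other than controls, the 18625 above the 40th percentile of mean signal entered 1 limma fit (limma 3.58.1, R 4.3.3) of all 30 arrays. It used an intensity trend. That fit gave the adjusted p values printed here, except where another setting or a left-out array is named. The fit was tested on simulated data. The platform's gene table tied 20826 probe sets to 1 symbol and 436 to several. The members and lists were chosen with earlier results of these data known. Beyond the 10 genes, the genes named are up to 4 per list with the largest changes at 1000 uM, passing ones first, and the closest genes by correlation. Marker genes, Il1a, Il1b, Il1rl2 and Map4k4 were named after their values were seen. Alternatives were 3 scalings, 2 filters, an added constant of 64, variance models, a covariate, fits of the compared groups alone, other probe sets, leaving out each array and, chosen after seeing the data, a block for sets of consecutive serial numbers.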

Additional observations from a re-analysis of the deposited data

Results flagged for a closer look

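Among 72 combinations of probe set and group, 1 array stood far from the others of its group, where chance gives about 1 in 20. It was Il1rn at 1000 uM and 48 h, replicate 3, with a signal of 397.8, when the next highest of the 5 was 134.1. Of 18 comparisons of a dose effect between the times, 3 passed. The Il1r2 effect at 48 h minus that at 24 h was -1.283 on the log2 scale at 60 uM (limma adjusted p = 0.0108) and -1.816 at 1000 uM (adjusted p = 1.91e-06), and every clofibrate array lay below every DMSO array at 48 h but not at 24 h. The Icam1 effect at 48 h minus that at 24 h was -0.772 at 1000 uM (adjusted p = 0.00131).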

How the results depend on the processing

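Of the member changes against DMSO under the alternatives, 722 kept their side of the threshold, 18 no longer passed, 18 newly passed and 2 that passed on the main setting changed sign. Both of these were Il1r1 on its next brightest probe set, 0.198 at 60 uM and 0.187 at 1000 uM at 48 h, so that 1 gene was lower at 60 uM and 48 h on that choice. Among changes that had not passed, 15 of 421 values also changed sign, with ranges of -0.052 to 0.109 for Irak2, -0.108 to 0.094 for Nfkb1 and -0.162 to 0.02 for Nfkbia at 60 uM and 24 h, -0.065 to 0.349 for Il1rn and -0.208 to 0.01 for Cxcl1 at 60 uM and 48 h, and -0.227 to 0.068 for Il1rn and -0.262 to 0.043 for Icam1 at 1000 uM and 24 h. The cause of the other changes was not tested. With poly-A spike-in scaling the lower genes numbered 3 at 1000 uM and 24 h, 1 at 60 uM and 48 h, and 4 for 1000 uM against 60 uM at 48 h. Under it 7, 10 and 2 acute phase genes were lower at 1000 uM at 24 h, at 1000 uM at 48 h and at 60 uM at 48 h, and 0 at 60 uM at 24 h. No share of all probe sets under that scaling is given beside these counts. At 60 uM and 24 h 1 gene, Il1r2, was lower above the 60th percentile, with log2(signal + 64) and with array quality weights, and 0 to 1 when single arrays were left out. At 60 uM and 48 h 4 were lower above the 60th percentile. For 1000 uM against 60 uM at 24 h the count was 3 to 5 when single arrays were left out, 5 without 60 uM replicate 2. In DMSO over time the 1 higher gene, Nfkbia, became 0 with median centring, quantile normalization, no filter, no intensity trend, array quality weights, only the compared groups, or the serial number as covariate, 2 with spike-in scaling, and 0 to 1 when single arrays were left out. Nfkb1 at 1000 uM and 24 h no longer passed with median centring (adjusted p = 0.133) or quantile normalization (adjusted p = 0.0913), nor did Il1r2 with median centring (adjusted p = 0.0753). The 1000 uM falls of Cxcl1, Tnfaip3, Icam1 (48 h) and Il1r2 (48 h) passed under all alternatives run. Irak2 at 1000 uM and 48 h newly passed above the 60th percentile (adjusted p = 0.0469) and with no intensity trend (adjusted p = 0.0491). The labels give no replicate number, but serial numbers run in 5 sets of 6 arrays that each hold every group once. With these sets as a replicate block, chosen after seeing the data, Irak2 also passed there (-0.343, adjusted p = 0.0464), no other member's call against DMSO changed, 1 feedback regulator rose at 1000 uM at each time, and 7134 probe sets passed at 1000 uM and 48 h, against 7054 without it. The deviations of arrays of 1 set correlated little more than others (median 0.006 over 75 pairs, against -0.003 over 300 pairs of different sets). Of 30 arrays, 11 correlated best with their own set, more than the 1 in 5 that an even choice among the 5 sets would give. More probe sets passed with the block also at 1000 uM and 24 h (5510 against 5385) and at 60 uM and 24 h (1291 against 1222). A weak effect of the sets was not tested beyond these values. The lower Il1r2 in DMSO at 48 h no longer passed with median centring, spike-in scaling, no filter, no intensity trend or only the compared groups (adjusted p 0.0504 to 0.132). For 1000 uM against 60 uM at 48 h, Nfkbia no longer passed with median centring (adjusted p = 0.0619), quantile normalization (0.0663) or spike-in scaling (0.405), nor Il1r2 with spike-in scaling (0.128). Values near the floor, as for Ccl2 and Il1rn at 48 h, carry the most uncertainty.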

Other observations

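Several cytokine genes that act upstream of the 10 genes were dim in all groups. Tnf signals ranged from 36.2 to 508 over the 30 arrays, with a group mean above the floor in 4 of 6 groups, and Il6 ranged from 59.9 to 221. Neither was tested. Il1rap, the partner chain of Il1r1, was bright throughout, at 2066 to 3291. These genes were chosen after their values were seen.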
